A study of Mus musculus with 6 samples.

Results

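Genes of the Wnt and ERK pathways were examined in Mettl5 knockout and wild-type mouse embryonic stem cells. Mettl5 methylates an adenosine of 18S ribosomal RNA. The members were a set of 9 named genes of the pathways that the inhibitors in the culture medium act on, and 7 of the 9 had a row in the deposited table of 9093 genes. These were Notum, Axin1, Ctnnb1, Apc, Gsk3b, Tcf7l1 and Etv5, whereas Axin2 and Etv4 were not analysed here. All 7 passed the low-count filters of the tests.

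The Mettl5 KO cells were edited with CRISPR/Cas9, and the labels do not say whether they came from 1 clone or several. They were compared with wild-type (WT) cells, both of a background from 129Sv females and C57BL/6 BVSC males. Cells of both genotypes grew in the serum-free 2i/LIF medium, which holds 1 µM PD0325901 (a MEK inhibitor), 3 µM CHIR99021 (a GSK3 inhibitor) and 1000 U of LIF, a cytokine, per ml, so no sample without the inhibitors was measured. Ribosome-protected fragments (footprints) were sequenced in 2 KO and 2 WT libraries and input mRNA in 1 library per genotype. No label says that the libraries came from different cultures, so the p-values reflect the spread between libraries alone, and that spread may be technical.

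In the Wnt pathway, a destruction complex built on the scaffolds Axin1 and Apc holds beta-catenin, the product of Ctnnb1, so that the kinase GSK3 can mark it for degradation. A GSK3 inhibitor stabilises beta-catenin, which relieves repression by the DNA-binding protein Tcf7l1 at pluripotency genes. Stem cells also receive an FGF signal that runs through Ras, Raf, MEK and ERK toward differentiation. MEK inhibition blocks it, and Etv5, an ETS family transcription factor, is among the genes it normally induces.

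Footprint libraries held 2060010 and 3472613 reads in KO cells, against 3524739 and 8675267 in WT cells. If the lowest input value of a library stands for 1 read, the input libraries held 15931259 reads in KO cells and 17912908 in WT cells. Mettl5 itself had 9.71 and 11.2 CPM of footprints (counts scaled to the library total) in the KO libraries, against 123 and 127 CPM in the WT libraries. All 14 pluripotency markers of the list were measured, led by Pou5f1 at 1350 and 1347 CPM of footprints in KO cells, against 1105 and 1153 CPM in WT cells. By edgeR 7 of the 14 were higher in KO footprints, 2 were lower (Sall4 and Tfcp2l1) and 5 passed in neither direction. Over all genes 18.3% were higher and 16% lower. Whole chromosomes were shifted, with a median log2 footprint change of 0.31 on chromosome 6, 0.39 on chromosome 8, -0.19 on chromosome 11 and -0.25 on chromosome 16. Medians of the other autosomes and the X chromosome lay within 0.0472 of 0. Of the 7 higher pluripotency markers, Nanog and Dppa3 lie on chromosome 6 and Klf2 and Zfp42 on chromosome 8.

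The first comparison asked whether ribosome footprints on the pathway genes differed between KO and WT cells. Footprints of 4 of the 7 genes were lower in KO cells, those of Notum, Etv5, Gsk3b and Ctnnb1, and 0 were higher. Axin1, Apc and Tcf7l1 passed in neither direction. Over all genes edgeR called 16% lower, 18.3% higher and 34.4% in either direction. The count of 0 higher was also 0 at an unadjusted p under 0.05 and 0 with DESeq2. Notum and Etv5 changed by more than 2-fold, whereas the changes of Gsk3b and Ctnnb1 were small. Footprint CPM of the KO and WT libraries did not overlap for 6 of the 7 genes, all but Axin1, against 64.6% of all genes.

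**Figure D1:**
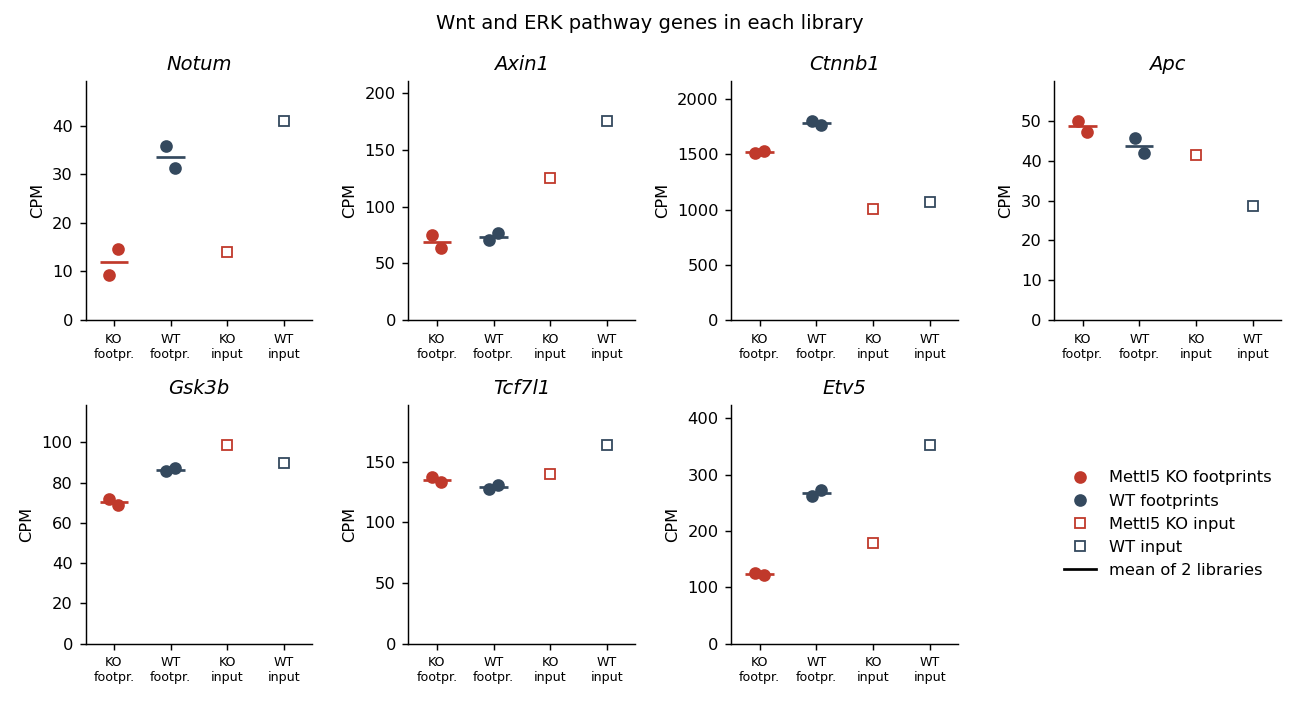
Footprint and input levels of the 7 genes in CPM, with 1 panel per gene. Filled circles are footprint libraries (2 KO, 2 WT, line at the mean), and open squares are the single input libraries. Notum and Etv5 are lower in KO cells in both footprints and input.

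Notum (ENSMUSG00000042988.10, chromosome 11, 120653788 to 120661193 in GRCm38) encodes a secreted enzyme that inactivates Wnt proteins by removing their lipid, and in many cells it is itself induced by Wnt signalling. It had 9.22 and 14.7 CPM of footprints in KO libraries, against 35.7 and 31.4 CPM in WT libraries. Both KO values lay below both WT values, although the KO libraries held only 19 and 51 reads of the gene. The log2 footprint change was -1.36 ± 0.19 SE, a 2.57-fold fall by edgeR (adjusted p = 3.3e-11). Input mRNA was lower as well, at 13.9 CPM in the KO library and 41.0 CPM in the WT library (log2 ratio of -1.49, 95% counting interval -1.70 to -1.29). The input difference has no replicate check.

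Etv5 (ENSMUSG00000013089.15, chromosome 16, 22381313 to 22439570 in GRCm38) had 125 and 122 CPM of footprints in KO libraries, against 262 and 273 CPM in WT libraries. The 2 libraries of each genotype lay close together and the genotypes were far apart. The log2 footprint change was -1.10 ± 0.07 SE, a 2.15-fold fall by edgeR (adjusted p = 4.49e-61). Input mRNA of Etv5 was 179 CPM in the KO library and 353 CPM in the WT library, a log2 ratio of -0.98 (95% counting interval of -1.05 to -0.92). Of all genes, 0.891% had a footprint change as low as that of Etv5 or lower, and 0.462% one as low as that of Notum or lower. In bulk samples, fewer cells that express a gene and less RNA per cell cannot be told apart.

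Promoter sequences from RefSeq (GRCm38.p6) were used for 4 of the 7 genes, in 6 windows of 300 bases. Notum, Axin1 and Apc were not included. Both windows of Etv5, which had the smallest adjusted p of the 7 genes in footprints, are shown because its protein and its relatives bind ETS motifs. Capitals mark a match to the ETS motifs AGGAAGT or CGGAAGT, searched on both strands together with the TCF/LEF motifs CTTTGAT and CTTTGTT. The first start site lies in chr16:22439521-22439820 and the second in chr16:22438319-22438618, both on the minus strand and written 5′ to 3′.
Etv5 first window: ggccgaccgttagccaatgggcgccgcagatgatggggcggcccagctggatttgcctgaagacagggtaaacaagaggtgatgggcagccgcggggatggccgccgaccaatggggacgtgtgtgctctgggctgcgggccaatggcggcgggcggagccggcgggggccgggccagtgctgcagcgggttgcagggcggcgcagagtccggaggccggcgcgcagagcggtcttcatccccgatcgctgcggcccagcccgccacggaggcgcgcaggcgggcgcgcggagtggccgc
Etv5 second window: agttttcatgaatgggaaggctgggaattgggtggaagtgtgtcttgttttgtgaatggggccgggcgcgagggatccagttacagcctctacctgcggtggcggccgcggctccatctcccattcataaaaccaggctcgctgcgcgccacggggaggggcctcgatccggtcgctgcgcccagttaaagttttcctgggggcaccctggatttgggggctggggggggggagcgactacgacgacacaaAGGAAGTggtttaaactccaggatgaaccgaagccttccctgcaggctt
The match in the second window begins at base 252, just after the annotated start site. The first window of Etv5 and the windows of Ctnnb1, Gsk3b and Tcf7l1 held no match to either kind of motif. Over 32851 promoter windows, 15.1% held an ETS match and 9.33% a TCF/LEF match.

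Ctnnb1 (ENSMUSG00000006932.17, chromosome 9, 120933400 to 120960507 in GRCm38), which encodes beta-catenin, had 1511 and 1531 CPM of footprints in KO libraries, against 1803 and 1765 CPM in WT libraries. Both KO values lay below both WT values. The fall was small, at -0.21 ± 0.03 SE on the log2 scale (edgeR adjusted p = 3.9e-10), and rested on 3112 to 15316 reads per library. Input mRNA was 1004 CPM in the KO library and 1069 CPM in the WT library, a log2 ratio of -0.09 (95% counting interval of -0.12 to -0.06).

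Gsk3b (ENSMUSG00000022812.13, chromosome 16, 38089001 to 38246084 in GRCm38) encodes one of the 2 GSK3 kinases that CHIR99021 inhibits. It had 71.8 and 68.8 CPM of footprints in KO libraries, against 85.7 and 87.1 CPM in WT libraries. The groups did not overlap, and footprints changed by -0.28 ± 0.10 SE in log2 units (edgeR adjusted p = 0.0137). This call was lost with DESeq2 (adjusted p = 0.205), without the second KO library (0.180) and without the second WT library (0.111), and the lowest value over the settings was 0.00654. Input mRNA was not lower, at 98.9 CPM in the KO library and 89.6 CPM in the WT library, a log2 ratio of 0.14 (95% counting interval of 0.04 to 0.24). The other GSK3 gene, Gsk3a, had a log2 footprint change of -0.16 and did not pass.

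The 3 remaining genes did not pass in footprints. Axin1 (ENSMUSG00000024182.16, chromosome 17, 26131217 to 26195811 in GRCm38), the scaffold whose amount is thought to limit the destruction complex, had 74.8 and 63.1 CPM in KO libraries, against 70.4 and 76.5 CPM in WT libraries. The groups overlapped, and the log2 change of -0.11 ± 0.10 SE (edgeR adjusted p = 0.413) turned to 0.025 without the second KO library. Input mRNA of Axin1 was 125 CPM in the KO library and 176 CPM in the WT library, a log2 ratio of -0.48 (95% counting interval of -0.57 to -0.40).

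Apc (ENSMUSG00000005871.14, chromosome 18), the other scaffold, had 50.0 and 47.2 CPM of footprints in KO libraries, against 45.7 and 41.8 CPM in WT libraries. It moved by 0.19 ± 0.13 SE in log2 units (edgeR adjusted p = 0.271). Its input was 41.4 CPM in the KO library and 28.7 CPM in the WT library, a log2 ratio of 0.51 (95% counting interval of 0.35 to 0.68) and the highest among the 7 genes. Tcf7l1 (ENSMUSG00000055799.13, chromosome 6, 72626371 to 72789045 in GRCm38) had 137 and 133 CPM of footprints in KO libraries, against 127 and 131 CPM in WT libraries. Both KO values lay above both WT values, but the change of 0.08 ± 0.08 SE in log2 units did not pass (edgeR adjusted p = 0.451). Input of Tcf7l1 was 140 CPM in the KO library and 164 CPM in the WT library, a log2 ratio of -0.23 (95% counting interval of -0.31 to -0.15).

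Because whole chromosomes were shifted, each gene was set beside the other genes of its chromosome. Notum lay far below chromosome 11, where 4 of 771 other genes had a lower footprint change and the median was -0.19. Etv5 lay below nearly all of chromosome 16, where 7 of 283 other genes were lower, and its change was -0.86 relative to the median of -0.24. Within 2 Mb of Etv5, 12 of 22 other genes fell and 0 rose in footprints, with a median of -0.40 for footprints and -0.35 for input. Over the whole of chromosome 16, 124 of the 283 other genes fell and 6 rose. Gsk3b, on the same chromosome, differed from the chromosome median by only -0.04, and 123 of the 283 other genes lay below Gsk3b. Tcf7l1 lay on chromosome 6, whose median was 0.31, so its change was -0.23 relative to its chromosome. Ctnnb1, Axin1 and Apc lie on chromosomes with medians of -0.01, 0.00 and 0.02. The part of the chromosome shifts in these changes was not tested.

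**Figure D2:**
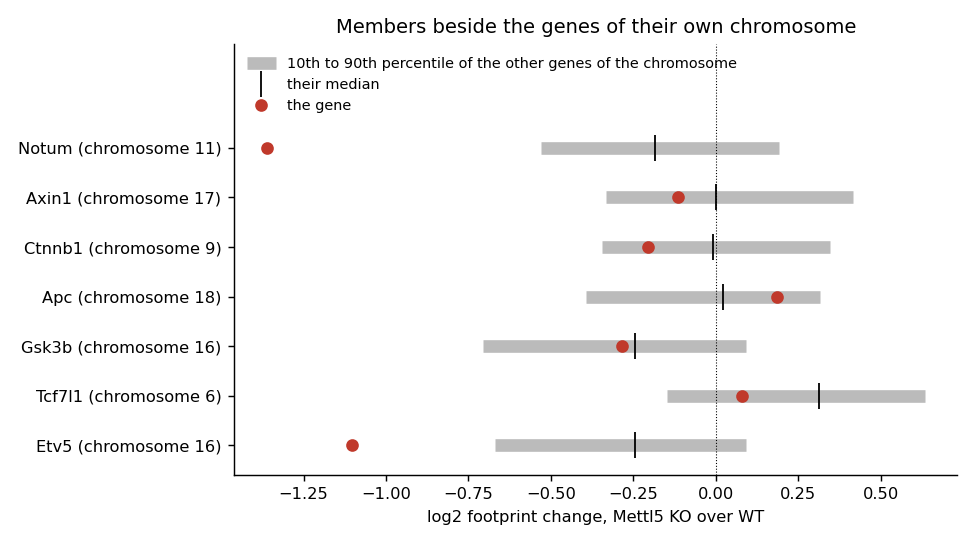
Log2 footprint change (KO over WT) of each gene (red point) beside the other measured genes of its chromosome (grey bar from the 10th to the 90th percentile, black tick at the median). Notum and Etv5 lie outside the grey bar, and the other 5 genes lie inside it.

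The second comparison asked whether translational efficiency (TE), the footprint level divided by the input mRNA level, differed between the genotypes. The falls of Notum and Etv5 in footprints came with input falls of like size, and TE of both passed in neither direction. Ctnnb1 was called lower in TE, so 1 of 7 genes was lower and 0 were higher, against 12.8% lower, 4.88% higher and 17.7% in either direction over all genes. At an unadjusted p under 0.05 the count was 2 lower, Ctnnb1 and Gsk3b, and 2 higher, Axin1 and Tcf7l1. After Benjamini-Hochberg adjustment of the p-values in the authors' deposited table, 0 were lower and 0 higher.

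In the authors' deposited table, TE of Notum was 0.662 and 1.05 in the KO libraries, against 0.872 and 0.765 in the WT libraries. The KO values lay on both sides of the WT values. The TE change of Notum was 0.05 ± 0.35 SE on the log2(CPM + 1) scale (limma adjusted p = 0.956), with a 95% interval of -0.68 to 0.77, so a change of moderate size was not detectable at this depth. TE of Etv5 was 0.699 and 0.684 in KO libraries, against 0.741 and 0.773 in WT libraries, in the authors' deposited table. Its TE change was -0.13 ± 0.10 SE (limma adjusted p = 0.444), with a 95% interval of -0.34 to 0.08. That interval leaves out the spread between input libraries, which was not measured. With an added input SD of 0.2 the SE was 0.30.

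TE of Ctnnb1 was 1.51 and 1.53 in KO libraries, against 1.69 and 1.65 in WT libraries, in the authors' deposited table. The change of -0.14 ± 0.05 SE just passed (limma adjusted p = 0.0432). The call was lost with median centring (change of -0.05, adjusted p = 0.542) and, among other settings, without either WT library (0.236 without the first and 0.0966 without the second) or without the first KO library (0.0537). Adjusted p-values ranged from 0.0214 to 0.967 over all settings. The ratios of KO, like those of WT, rest on a single input library, whose spread was not measured.

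TE of Gsk3b was 0.727 and 0.696 in KO libraries, against 0.956 and 0.973 in WT libraries, in the authors' deposited table. The groups were apart, but the change of -0.43 ± 0.16 SE missed the threshold (limma adjusted p = 0.0577). It passed when either KO library was left out (adjusted p = 0.0133 without the first, 0.0331 without the second), and settings ranged up to 0.848. TE of Apc was 1.21 and 1.14 in KO libraries, against 1.59 and 1.46 in WT libraries, in the authors' deposited table, with a change of -0.37 ± 0.22 SE (limma adjusted p = 0.302).

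Axin1 and Tcf7l1 had higher TE values in both KO libraries. TE of Axin1 was 0.597 and 0.504 in KO libraries, against 0.401 and 0.436 in WT libraries, in the authors' deposited table, a change of 0.39 ± 0.16 SE (limma adjusted p = 0.109). TE of Tcf7l1 was 0.982 and 0.951 in KO libraries, against 0.775 and 0.799 in WT libraries, in the authors' deposited table, a change of 0.29 ± 0.12 SE (limma adjusted p = 0.102). Neither passed, but both were called with median centring (adjusted p = 0.0457 for Axin1 and 0.0300 for Tcf7l1) and without the second KO library (0.00244 and 0.0351). Over all settings the adjusted p reached 0.874 for Axin1 and 0.900 for Tcf7l1.

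**Figure D3:**
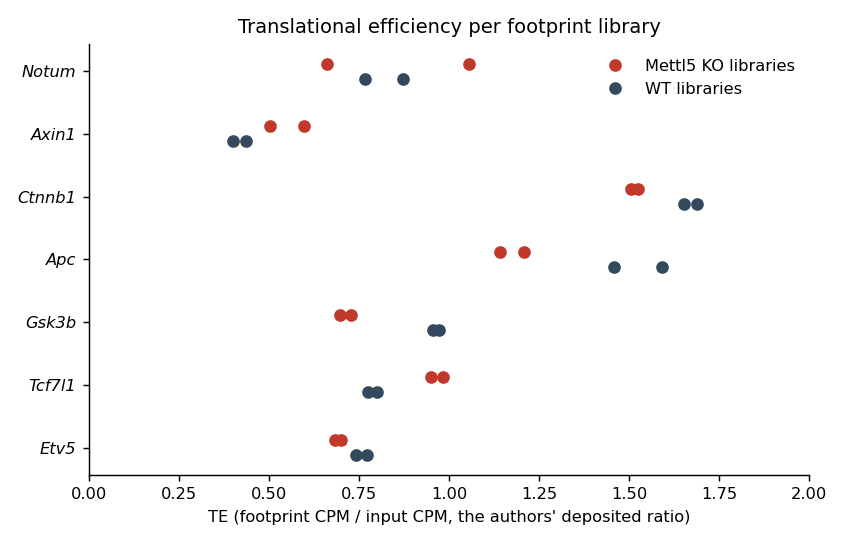
TE of the 7 genes in each footprint library, as the authors' deposited ratio of footprint CPM to input CPM, with KO libraries in red above WT libraries in blue. The 2 points of a genotype share 1 input library. Ctnnb1 has the highest TE and Axin1 the lowest in both genotypes.

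TE was also set side by side between genes, as a description. The read counter and annotation are not known, so it cannot be said whether gene length cancels in the ratio. Mean TE in the authors' deposited table ran from 0.551 for Axin1 to 1.52 for Ctnnb1 in KO cells, and from 0.418 to 1.67 for the same genes in WT cells. The medians over all genes were 0.854 in KO cells and 0.890 in WT cells. Ctnnb1 stood at percentile 77.4 of all genes in KO cells and 76.3 in WT cells, Apc at 66.3 and 73.5, and Axin1 at 27.4 and 17.4. Between them lay Tcf7l1 at percentile 56.7 in KO cells and 44.2 in WT cells, Notum at 50.4 and 46.1, Gsk3b at 40.0 and 54.0, and Etv5 at 38.6 and 42.3. In KO cells the values of Notum overlapped with those of Tcf7l1, Gsk3b and Etv5, and Gsk3b overlapped with Etv5, and in WT cells Notum overlapped with both Tcf7l1 and Etv5.

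**Figure D4:**
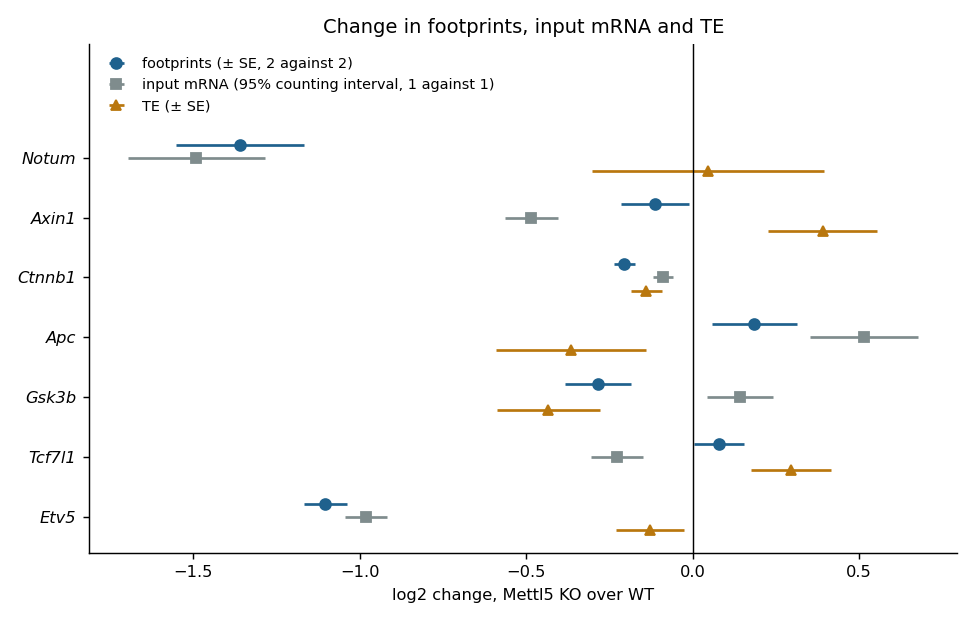
Log2 change (KO over WT) of each gene in footprints (circles, ± SE from edgeR), input mRNA (squares, 95% counting interval of 1 library each) and TE (triangles, ± SE from limma). For Notum and Etv5 footprints and input lie together below -0.9, while TE lies near 0.

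Profiles over the 6 libraries were compared between each pathway gene and all other genes by the Euclidean distance of centred log2(CPM + 1) values. Closest to Notum was Dnmt3b, a de novo DNA methyltransferase of formative cells, at a distance of 0.292, with a log2 footprint change of -1.49. Cpsf4l lay at a distance of 0.419. Closest to Etv5 were Mmrn2 (0.159), Ephx2 (0.198) and Jam3 (0.269). Neighbours of Ctnnb1 were Pdhx (0.0969), Bckdhb (0.0983) and Laptm4a (0.105), and those of Tcf7l1 were the cell cycle genes Ccne1 (0.0618) and Cdk4 (0.0821) and, between them, Clasrp (0.0710). Gsk3b was closest to Ndc1 (0.0951), Heatr5b (0.107) and Arf4 (0.116), Axin1 to Neurl4 (0.122), Crocc (0.134) and Grwd1 (0.170), and Apc to Rbm5 (0.113), Twsg1 (0.133) and Mapk8 (0.149). This likeness is a description over 6 libraries of 2 genotypes.

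Markers of other cell states also differed between the genotypes. Of 8 formative and primed markers 4 were measured and all 4 were lower in KO footprints, and they summed to 100 and 107 CPM in KO libraries, against 209 and 210 CPM in WT libraries. Of 11 endoderm markers 5 were measured and all 5 fell, summing to 1836 and 1894 CPM in KO libraries, against 3220 and 3222 CPM in WT libraries. Of 11 fibroblast markers 5 were measured, of which 4 fell and Fn1 rose. Their sums were 3234 and 3252 CPM in KO libraries, against 3481 and 3493 CPM in WT libraries. Fn1 made up most of these sums, with 3074 and 3101 CPM in KO libraries, against 2765 and 2755 CPM in WT libraries. Of 5 neural markers 3 were measured, of which Nes (log2 change of 0.83) and Tubb3 (0.21, chromosome 8) rose and Map2 did not pass, and they summed to 342 and 331 CPM in KO libraries, against 256 and 260 CPM in WT libraries. Of 5 mesoderm markers only Eomes was measured, and it did not pass. The lowest of the measured formative, endoderm and fibroblast markers in KO cells was Col1a1, at 7.28 and 5.18 CPM, against 293 and 300 CPM in WT libraries. No gene of the deposited table had fewer than 11 footprint reads in a library. A marker without footprints in KO cells could therefore not appear among them. The part of such cells in the falls of Notum and Etv5 was not tested.

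The wider pathways were described with 8 lists that named 222 genes, of which 127 were measured. In footprints 27 of the 127 rose, 26 fell and 74 passed in neither direction, with a median log2 change of 0.05, against 18.3% higher, 16% lower and a median of -0.000268 over all genes. In TE 11 rose, 23 fell and 93 did neither, with a median of 0.01, against 4.88% higher, 12.8% lower and a median of -0.03 over all genes. TE calls of the lists depended on the setting. With an added input SD of 0.2, 0 genes of each list were called in TE in either direction. With the authors' adjusted p-values the TE calls were 1 higher among Wnt feedback genes and targets, 1 higher and 1 lower among Ras, Raf, MEK and ERK genes, and 0 in the other 6 lists.

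The Wnt ligand genes of the first list were not analysed here. Among Wnt receptor and Dishevelled genes, 6 of 12 measured fell in footprints and 0 rose, with a median of -0.29. The count of 0 higher was also 0 at an unadjusted p under 0.05 and 0 with DESeq2, while the count lower was 3 with DESeq2 and 3 without the second WT library. The Wnt receptor gene Fzd7 had 17.0 and 18.4 CPM in KO libraries, against 34.6 and 35.2 CPM in WT libraries, and fell by 0.94 on the log2 scale (± 0.17 SE). The receptor gene Ror2 fell by 0.68, the R-spondin receptor gene Lgr4 by 0.56 and the signal transducer gene Dvl3, on chromosome 16, by 0.49. The co-receptor gene Lrp6, on chromosome 6, had 89.8 and 82.9 CPM of footprints in KO libraries, against 82.8 and 82.5 CPM in WT libraries, but 116 CPM of input in KO and 63.6 CPM in WT. TE was lower for Lrp6 (-0.79 ± 0.16 SE, limma adjusted p = 0.000799) and Lgr4 (-0.60 ± 0.17 SE, limma adjusted p = 0.0179), and higher for Dvl2.

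Among partners of the destruction complex 4 of 24 genes rose and 4 fell in footprints, with a median of 0.07. The higher genes were the ubiquitin ligase gene Siah1a (0.72 ± 0.26), the phosphatase 2A catalytic subunit gene Ppp2cb (0.62 ± 0.05), the casein kinase gene Csnk1e (0.46 ± 0.09) and the tankyrase gene Tnks (0.39 ± 0.05), whose product marks axin for degradation. All but Csnk1e lie on chromosome 8. The lower ones were Btrc and Fbxw11, which encode the F-box proteins that recognise phosphorylated beta-catenin, with Usp7 and Skp1a. Of these, Fbxw11 and Skp1a lie on chromosome 11 and Usp7 on chromosome 16. The count lower was 2 with DESeq2 and 2 without the second KO library, and without other genes of chromosomes 6, 8, 11 and 16, which leaves those genes untested, 1 was higher and 1 lower. TE was lower for 7 and higher for 3, Ppp2cb, Ppp2r1a and Ppp2r5d, against 0 and 0 with the authors' adjusted p-values or the added input SD. Among the called genes, the largest TE falls were those of the cullin gene Cul1 (-0.92 ± 0.14), on chromosome 6, and the casein kinase gene Csnk1a1 (-0.59 ± 0.10), both with more KO input.

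Of 20 genes for TCF/LEF factors, their nuclear cofactors and beta-catenin partners, 6 fell and 3 rose in footprints, with a median of -0.11. Falls were led by the Groucho-related genes Aes (-0.64 ± 0.06) and Tle1 (-0.59 ± 0.22) and the corepressor gene Ctbp2 (-0.55 ± 0.05). Aes had 187 and 182 CPM in KO libraries, against 283 and 296 CPM in WT libraries. Rises were those of Bcl9l (0.42 ± 0.16), a beta-catenin coactivator, with Hdac1 and Cdh1. With DESeq2, and likewise without the second KO library, 3 were lower and 1 higher. In TE 5 genes were lower, Chd8, Aes, Crebbp, Ctnna1 and Cdh1, and 0 were higher by limma. At an unadjusted p under 0.05 the count higher was 2, and with the authors' adjusted p-values 0 were higher and 0 lower. Median centring gave 3 lower and 1 higher.

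Wnt feedback genes and targets had 3 of 11 higher and 2 lower, with a median of 0.05. The secreted Wnt antagonist gene Sfrp1, on chromosome 8, had 331 and 300 CPM in KO libraries, against 220 and 208 CPM in WT libraries (log2 change of 0.58 ± 0.05). Nanog and Klf2 rose by 0.34 and 0.33 on the log2 scale, on chromosomes 6 and 8. Tcf7, which encodes an activating TCF factor, fell by 0.40 and lies on chromosome 11, and Tfcp2l1 fell by 0.18. The count lower was 1 with DESeq2, 1 without the second WT library and 0 without the second KO library. Without other genes of chromosomes 6, 8, 11 and 16, which drops all 3 higher genes, 0 were higher and 1 lower. TE of Klf2 (0.58 ± 0.08) and Esrrb was higher, and that of Tfcp2l1 was lower (-0.64 ± 0.07).

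On the side of FGF reception, 2 of 12 genes rose and 3 fell, with a median of 0.000892. The receptor gene Fgfr2 fell most, by 1.23 on the log2 scale (± 0.23 SE, edgeR adjusted p = 9.09e-07), with 8.74 and 8.93 CPM in KO libraries, against 22.4 and 20.5 CPM in WT libraries. Its input log2 ratio was -1.25. Fgfr1, the main FGF receptor gene of these cells, had a change of 0.14 and did not pass. The adaptor genes Grb2 (-0.38, chromosome 11) and Shc1 (-0.27) fell, while Gab1 (0.39, chromosome 8) and the ligand gene Fgf4 (0.23) rose. With DESeq2 1 was higher and 1 lower, and likewise without the second WT library, and 1 was lower without the first KO library and 1 higher without the second. TE of Gab1 was lower (-0.44 ± 0.07) and that of Fgf4 higher (0.28 ± 0.09).

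Ras, Raf, MEK and ERK genes had 8 of 28 higher and 3 lower in footprints, with a median of 0.15. Rps6ka2, a kinase gene downstream of ERK, rose by 0.68 and Mapk3, which encodes ERK1, by 0.49. The falls included those of Nf1, a Ras inhibitor gene on chromosome 11 (-0.51), and Rps6ka1 (-0.32). Map2k1 and Map2k2, the genes of the 2 MEK kinases that PD0325901 inhibits, had changes of -0.05 and 0.01 and did not pass. The count higher was 4 with DESeq2 and 4 without the second KO library, and without other genes of chromosomes 6, 8, 11 and 16 the count lower was 1. TE was lower for 6 genes, among them Nf1 (-1.05 ± 0.35) and Rps6ka6 (-0.75 ± 0.25), and higher for Map2k2. Median centring gave 4 higher and 0 lower in TE, and leaving out the first WT library gave 0 and 0.

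ERK feedback genes had 1 of 9 higher, Dusp16 (0.45 ± 0.14, chromosome 6), and 1 lower, Dusp9, with a median of -0.01. The count higher was 0 with DESeq2, without the second KO library and without the second WT library. Dusp9 encodes an ERK phosphatase and had 31.1 and 29.4 CPM in KO libraries, against 86.2 and 73.0 CPM in WT libraries. It fell by 1.35 on the log2 scale (± 0.12 SE, edgeR adjusted p = 2.96e-25), with an input log2 ratio of -1.36 and a TE change of 0.00035 ± 0.21. In TE 0 of the 9 genes were called in each direction by limma, 1 in each at an unadjusted p under 0.05, and 0 with the authors' adjusted p-values. Transcription factors linked to ERK signalling, not all of them induced by it, had 6 of 12 higher and 2 lower, Ets2 and Gabpa, with a median of 0.30. Jund rose most, with 261 and 251 CPM in KO libraries, against 120 and 137 CPM in WT libraries (log2 change of 0.98 ± 0.06), followed by Klf6 (0.74), Junb (0.63) and Etv6 (0.50). Jund, Junb and Ier2 lie on chromosome 8, Etv6 on chromosome 6, and Ets2 and Gabpa on chromosome 16. The count higher was 4 with DESeq2, and without other genes of chromosomes 6, 8, 11 and 16, which drops these 6, it was 2 higher and 0 lower. TE of Junb (0.85 ± 0.24), Jund (0.70 ± 0.12) and Ier2 was higher, and that of Gabpa lower, and the count higher in TE was 1 without the first WT library.

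**Figure D5:**
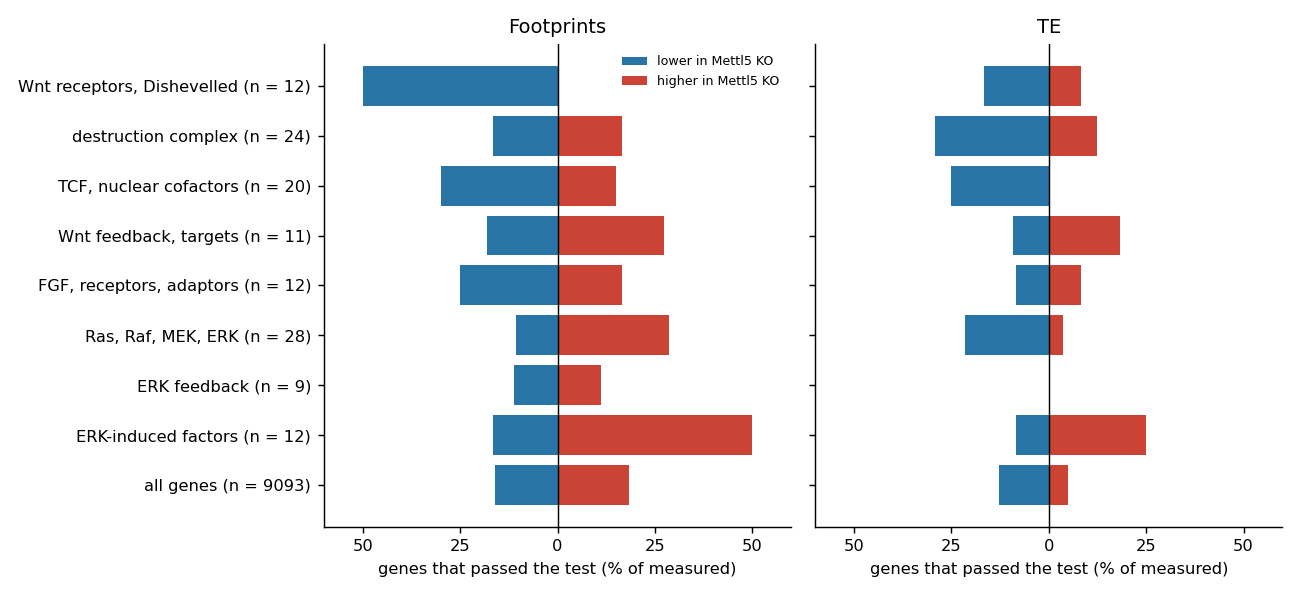
Percent of the measured genes of each pathway list that passed the test, lower (blue, to the left) or higher (red, to the right) in KO cells, for footprints (edgeR) and TE (limma), with all 9093 genes at the bottom. Wnt receptor and Dishevelled genes have 6 of 12 lower and 0 higher in footprints. The list labelled ERK-induced factors, not all of which ERK induces, has 6 of 12 higher and 2 lower.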

How the data were processed

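The authors deposited footprint reads per gene as raw counts, per the file headers, together with footprint and input CPM, TE as a ratio of footprint to input CPM, the mean ratio of each genotype, the log2 fold of those means and an unadjusted p-value. Bowtie and mm10 are named per the submitters' processing notes. No source used here gives the read counter, the annotation or the gene filter. Library totals were recovered from footprint count over CPM. Every input value (100%, tolerance 0.01) was an integer multiple of the lowest one in its library, and input totals and counting intervals hold if that value is 1 read. A separate check of the low input values did not accept them as whole reads, so no count model was run on them. The intervals cover counting error only. A further 2 input columns repeated the values of the first ones and were not used. The symbols of 9057 genes matched RefSeq (GRCm38), which gave positions.

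The footprint test used edgeR 4.0.16 (TMM, quasi-likelihood) and the TE test limma 3.58.1 (trend, log2(CPM + 1), genotype by library type over 6 libraries), with Benjamini-Hochberg adjustment over 9093 genes and a threshold of 0.05. Adding 1 CPM understates changes of low genes. Both fits had 2 residual degrees of freedom, all from footprints. Lost calls were checked with DESeq2 1.42.0, other scalings, floors and pseudocounts, and without each footprint library. The members and lists were chosen with earlier results of these data known. Named are all members, Mettl5, up to 4 footprint and 2 TE calls of largest change per list, the 3 marker genes of highest level, and the 3 closest profiles per member. Other genes named from the lists, such as Gsk3a, Btrc, Fgfr1, Map2k1 and Ets2, were chosen after their values were seen. A few genes that this rule names are not reported here.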

Additional observations from a re-analysis of the deposited data

How the results depend on the processing

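Footprint calls of Notum, Etv5 and Ctnnb1 held under all alternatives tried in which each was tested, and the number of lower genes among the 7 was 4, or 3 where Gsk3b was lost or where a minimum of 50 counts per library left Notum out. The footprint change of Notum ranged from -1.81 without the second KO library to -1.14 without the first, and that of Axin1 from -0.21 to 0.025, turning only without the second KO library. TE calls among the 7 genes depended on the processing. Median centring gave 2 higher and 0 lower, and the count of 1 lower became 0 with an added input SD of 0.2, with the authors' adjusted p-values and with a replicate block. Leaving out 1 footprint library gave 0 to 2 higher and 0 to 2 lower. TE of Notum, with 1 library left out, ranged from -0.26 (second KO library) to 0.35 (first KO library), and was -0.05 without the second WT library. The input ratio of Ctnnb1 was -0.14 after centring on all genes. The causes were not tested.

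Over the table, higher and lower footprint calls numbered 1668 and 1458 with edgeR and 771 and 629 with DESeq2, 1015 and 920 without the second KO library, and 1020 higher without other genes of chromosomes 6, 8, 11 and 16. TE calls numbered 444 and 1165, with 756 higher after median centring, 4 and 0 with the added input SD, and 36 and 107 with the authors' adjusted p-values. With 1 footprint library left out, higher TE calls ranged from 279 (first WT library) to 811 (second KO library), with 696 for the first KO library. Deviations of same-numbered libraries had a correlation of -0.0327 over genes. The variance between libraries was only 1.24 (KO) and 1.44 (WT) times that of counting alone. Much of each deviation was thus counting noise, and the correlation cannot show whether replicate numbers pair the libraries. The replicate block changed no footprint call of the 7 genes. A count model of TE on recovered input reads was not run, because a separate check of the low input values did not accept them as whole reads.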
